A study of Mus musculus with 2 samples.

Results

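The Paneth cell defensins and secretory products were followed as 34 rows of 17840 in a pair of RNA sequencing libraries from sorted mouse intestinal crypt cells. They comprise 25 defensin rows and 9 other products: Lyz1, Ang4, Itln1, Mmp7, Pla2g2a, Pnliprp2, Clps, Habp2 and Nupr1. The defensin rows are those whose symbol begins with Defa, together with AY761184, Gm15284, Gm15308, Gm7849, Gm15292 and Gm21002. The last 6 names belong to alpha-defensin genes in the RefSeq table of GRCm38.p6.

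The KO library came from tamoxifen-treated mice with 2 floxed Srcap alleles and Lgr5-Cre (Srcap flox/flox; Lgr5-Cre+), and the WT library from Srcap+/+; Lgr5-Cre+ mice. Srcap encodes a chromatin remodelling ATPase whose complex places the histone variant H2A.Z in nucleosomes. Crypts of Lgr5-GFP mice were dissociated and the cells sorted by GFP intensity, without culture. Cre was driven by the Lgr5 gene, which marks crypt stem cells, so recombination was directed to those cells and their progeny. The labels give no age, strain, number of mice or deleted exons, and do not say whether the WT mice also received tamoxifen.

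Paneth cells sit between the Lgr5-positive stem cells at the base of small intestinal crypts and release granules of antimicrobial proteins. Alpha-defensins, called cryptdins in the mouse, are made as inactive precursors and cut to short cationic peptides with cysteine bridges that disrupt bacterial membranes. Wnt signalling through TCF factors is known to drive the Paneth cell defensin genes, and the mouse genome holds them as a cluster of recent duplicates.

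The labelled cell type and the transcripts present were set side by side first. Lgr5 was at 2.17 FPKM in the KO library and 5.90 FPKM in the WT library, and the stem cell gene Olfm4 was at 568 FPKM in the KO library and 1457 FPKM in the WT library. The unit, FPKM, counts fragments per kilobase of transcript for a fixed number of mapped fragments. Defa24, the most abundant member, was 3882 times the Lgr5 value in the KO library and 2492 times in the WT library. Both libraries therefore held Paneth cell transcripts in quantity beside stem cell transcripts. Srcap itself was at 11.3 FPKM in the KO library, 55.7% of its 20.4 FPKM in the WT library. The epithelial gene Epcam was at 711 FPKM in the KO library and 706 FPKM in the WT library, and the leukocyte gene Ptprc at 5.80 FPKM in the KO library and 3.0 FPKM in the WT library. In such bulk samples, fewer Paneth cells and less RNA per Paneth cell cannot be told apart. Each genotype had 1 library, so no difference has a replicate check or a p-value, and each one is between this pair of libraries.

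Members held 8.26% of all FPKM in the KO library and 12.8% in the WT library. Their sum was 52370 FPKM in the KO library, which is 61.0% of the 85879 FPKM in the WT library. Members made up 7 of the 20 highest rows in the KO library, against 13 of the 20 highest in the WT library. Of the 34 rows, 30 reached 1 FPKM in either library and were compared as log2 ratios of KO over WT after adding 1 FPKM to each value. The ratio was negative for 29 of these 30 and its median was -0.83, with quartiles of -0.99 and -0.51. Over all 11784 rows past the same filter, 5468 ratios were negative and the median was 0.02. A row was called when the ratio reached 2-fold. By this rule 8 members were lower and 1 was higher, and 21 lay within 2-fold. Over all rows the rule called 0.416% lower and 2.61% higher. The usual size of the members' difference was thus short of 2-fold, and nearly all of them shared its sign. The size varied, with Gm15308 at -0.10 and Nupr1 at -0.17, and rows of near-identical genes are not independent.

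**Figure D1:**
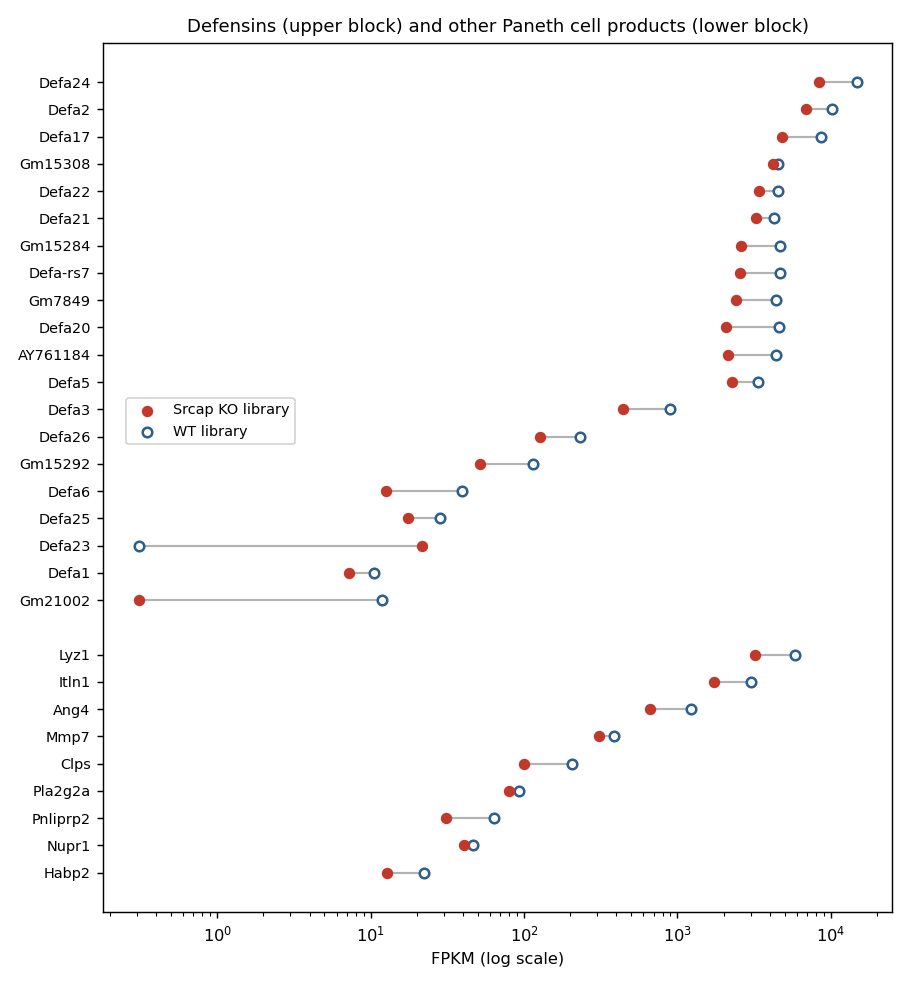
FPKM on a log axis for 29 members at 1 FPKM or more in either library, with filled points for the Srcap KO library, open points for the WT library and a grey line joining them (1 library each, no error bars). The KO point lies left of the WT point for 28 of these 29, the exception being Defa23 with 21.8 FPKM in KO and 0.31 FPKM in WT.

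The other 4 rows stayed under the filter. Defa-rs4 was listed at 0 FPKM in KO and 0.55 FPKM in WT, and Defa-rs2 at 0 FPKM in KO and 0.14 FPKM in WT. Defa4 and Defa-rs10 were listed at 0 in both libraries. None of these 4, nor Defa1 or Defa6, was matched in the RefSeq gene table, whereas 28 members were.

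The size of the difference was compared with rows of like abundance. Of 125 rows at 1000 FPKM or more in WT, 2.4% were called lower. Picking rows by their WT value favours rows that happened to be high in that library, among members and other rows alike. After setting aside every defensin row and the other members, 106 of the 125 remained, with a median log2 ratio of -0.16 and a KO sum at 94.5% of the WT sum. Of these 106, 84 also had a negative ratio, so the sign alone sets the members apart less at this abundance. The 12 defensin rows of that abundance had a median of -0.82 and a KO sum at 61.8% of the WT sum. Among the 125, 21 stood at or below 80% of their WT value in KO. They were 14 members, 4 further defensin rows that the naming rule does not take in, and Olfm4, Ptma and Hsp90ab1. Across 5766 rows at 10 FPKM or more in both libraries the robust SD of the log2 ratio, from the median absolute deviation, was 0.18, which describes the scatter between genes and not between mice.

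**Figure D2:**
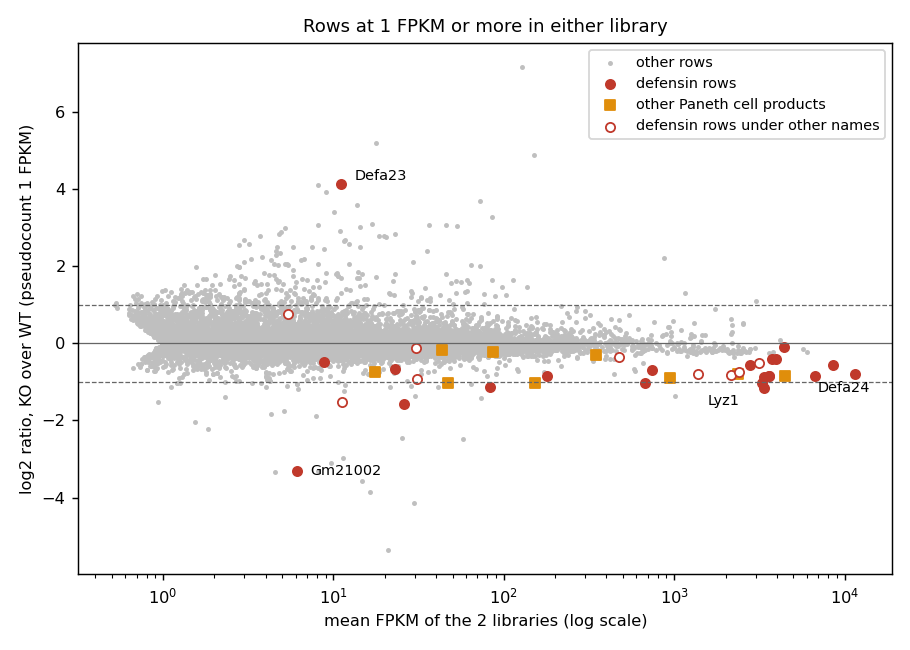
Log2 ratio of KO over WT against the mean FPKM of the libraries (log axis) for 11784 rows, with members and 9 further defensin rows marked and dashed lines at 2-fold. The 12 defensin rows at 1000 FPKM or more in WT lie between -1.15 and -0.10, while Defa23 at 4.12 and Gm21002 at -3.30 stand far outside that range.

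The alpha-defensins with placed genes lie on chromosome 8 of GRCm38, which is the assembly also called mm10. The 19 rows found in RefSeq run from 21025545 (Defa21) to 21735471 (Defa24), a stretch of 710 kb. Transcripts from GENCODE M21 of the same assembly were compared for these rows. Transcripts of Defa2, Gm21002 (Defa33 in RefSeq), Defa20 and Gm15308 (Defa32) differ from each other at no more than 2 aligned bases, and they are the clearest case of copies that short reads separate poorly. Counting from the first base of the Defa2 transcript, Defa20 carries G148C, Gm21002 carries A345G and Gm15308 carries both. The stretch around the site of G148C, inside the coding region, is shown for all 4, with that base in capitals.
Defa2: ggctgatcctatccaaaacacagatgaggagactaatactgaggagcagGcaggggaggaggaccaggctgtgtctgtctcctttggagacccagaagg
Gm21002: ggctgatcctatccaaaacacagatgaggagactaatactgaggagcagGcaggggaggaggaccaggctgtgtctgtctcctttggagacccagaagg
Defa20: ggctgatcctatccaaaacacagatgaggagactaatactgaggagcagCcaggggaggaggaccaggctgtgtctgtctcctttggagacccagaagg
Gm15308: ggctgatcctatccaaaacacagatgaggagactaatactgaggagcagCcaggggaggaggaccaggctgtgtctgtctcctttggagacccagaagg
The letters are those of the reference transcripts, not of reads. With reads of 50 bases, a read over either site narrows the 4 copies to a pair, and no 50-base window of any of them was found in that gene alone.

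Defa21 and Defa22 form a second close pair, at 2 substitutions over 418 aligned bases (T157G and T247A, counted on the Defa21 transcript). Both lie in the coding region and are far enough apart that many reads hold neither. The stretch that holds both sites is shown with the differing bases in capitals.
Defa21: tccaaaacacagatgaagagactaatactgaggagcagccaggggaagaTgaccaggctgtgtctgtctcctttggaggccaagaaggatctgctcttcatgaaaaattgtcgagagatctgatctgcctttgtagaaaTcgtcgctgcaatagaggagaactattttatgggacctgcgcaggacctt
Defa22: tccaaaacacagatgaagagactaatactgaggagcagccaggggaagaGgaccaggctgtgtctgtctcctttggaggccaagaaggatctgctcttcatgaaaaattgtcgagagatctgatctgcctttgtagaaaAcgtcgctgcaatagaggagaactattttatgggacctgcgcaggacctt
Here 27.1% of the 50-base windows of Defa21 and 25.1% of those of Defa22 were found in no other gene.

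Defa24 is the opposite case, an abundant cryptdin with 266 of its 370 windows (71.9%) found in no other gene, so its value leans least on how reads were divided among copies. The last 180 bases of its coding region, which in Defa24 include the mature peptide, are shown beside those of AY761184 (Defa39), in which 66.5% of windows were unique. Capitals mark the in-frame codons TGT and TGC, which encode cysteine.
Defa24: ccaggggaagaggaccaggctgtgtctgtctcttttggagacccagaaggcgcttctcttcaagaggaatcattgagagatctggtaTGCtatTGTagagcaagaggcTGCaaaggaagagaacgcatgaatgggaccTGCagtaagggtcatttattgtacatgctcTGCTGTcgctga
AY761184: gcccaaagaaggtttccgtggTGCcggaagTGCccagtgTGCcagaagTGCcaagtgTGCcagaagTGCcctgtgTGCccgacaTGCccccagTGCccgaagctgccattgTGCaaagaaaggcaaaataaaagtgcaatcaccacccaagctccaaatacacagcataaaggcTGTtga
Defa24 has 6 such codons, all within its last 40 codons, as in the classical alpha-defensin fold. AY761184 has 11, several of them spaced in a repeated pattern. Like Gm7849 (Defa42), it has a coding region of 351 bases and is transcribed from the minus strand, while 16 placed rows are on the plus strand.

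Among the classical cryptdins, Defa24 (chromosome 8, 21734494 to 21735471) was at 8425 FPKM in the KO library and 14704 FPKM in the WT library, with KO at 57.3% of WT and a log2 ratio of -0.80. Defa2 (21378517 to 21379495) was at 6910 FPKM in KO and 10181 FPKM in WT, a log2 ratio of -0.56. Defa17 (21655767 to 21656736) was at 4779 FPKM in KO and 8607 FPKM in WT, a log2 ratio of -0.85. These 3 led the family in WT, and they held 43.5% of all defensin FPKM in KO and 44.6% in WT. The joint share of these 3 was therefore close in the 2 libraries, although the family's total was not. Single shares shifted both ways. Defa24 held 18.2% in KO and 19.6% in WT, and Defa2 held 14.9% in KO and 13.6% in WT. Gm15308 held 9.13% in KO and 6.04% in WT, and Defa20 held 4.48% in KO and 6.14% in WT.

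Gm15308 (21529030 to 21530012) was nearly level, at 4221 FPKM in KO and 4534 FPKM in WT, a log2 ratio of -0.10. Defa22 (21162277 to 21163249) was at 3386 FPKM in KO and 4514 FPKM in WT (-0.41), and Defa21 (21025545 to 21026517) at 3241 FPKM in KO and 4278 FPKM in WT (-0.40). The near-identical pair thus gave ratios that differed by little. Gm15284 (Defa30, 21134650 to 21135598) was at 2582 FPKM in KO and 4639 FPKM in WT (-0.84). Defa-rs7 (Defa31, 21191573 to 21192550) was at 2564 FPKM in KO and 4631 FPKM in WT (-0.85). Gm7849, of the minus-strand type (21455427 to 21456517), was at 2392 FPKM in KO and 4371 FPKM in WT (-0.87). In each of these 9 rows, the most abundant by mean level, the KO value was the lower, and in none did the difference reach 2-fold. Defa20 came next in abundance.

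In all, 6 defensin rows were at least 2-fold lower in KO. Defa20 (21509258 to 21510237) was at 2072 FPKM in KO and 4609 FPKM in WT, a log2 ratio of -1.15. AY761184 (21702524 to 21703647) was at 2150 FPKM in KO and 4365 FPKM in WT, with a log2 ratio of -1.02. Defa3 (21287409 to 21288377) was at 439 FPKM in KO and 900 FPKM in WT (-1.03). AY761184 and Defa3 only just passed the limit, and stood at -0.94 and -0.95 after both libraries were scaled to the same sum. Gm15292 (Defa40, 21249715 to 21250553) was at 51.6 FPKM in KO and 114 FPKM in WT (-1.13), and Defa6 at 12.7 FPKM in KO and 39.3 FPKM in WT (-1.56). Gm21002 (21391811 to 21392792) was at 0.31 FPKM in KO and 11.9 FPKM in WT (-3.30). Defa23 (21055040 to 21056016) was the only member higher in KO, at 21.8 FPKM in KO and 0.31 FPKM in WT (4.12). From the steps between low values, 0.31 FPKM of a transcript of this length is about 2 reads, so the size of these last 2 ratios is uncertain by counting error alone.

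Defa5, Defa26, Defa25 and Defa1 were also at 1 FPKM or more, and their log2 ratios lay between -0.84 and -0.49. Defa5 was the most abundant of them, at 2255 FPKM in KO and 3340 FPKM in WT. Over all 21 defensin rows the median was -0.84 with quartiles of -1.02 and -0.56, the SD over rows was 1.27 and the KO sum was 61.6% of the WT sum.

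The spread among the defensins was set beside how well their transcripts can be told from copies. In 4 rows with over 50% of windows unique (Defa24, AY761184, Gm15292 and Defa26) the log2 ratios ran from -1.13 to -0.80, with an SD of 0.15. In 4 rows between 10% and 50% they ran from -0.84 to -0.40, with an SD of 0.21. In the 10 rows under 10% they ran from -3.30 to 4.12, with an SD of 1.84. Most of that SD came from Defa23 and Gm21002, each at 0.31 FPKM in 1 library, and the other 8 rows ran from -1.15 to -0.10 with an SD of 0.33. The ends of this narrower range were Defa20 and Gm15308, while Defa17 lay close to the family's median. The KO sums of the 3 sets stood at 55.4%, 68.6% and 62.3% of their WT sums, in order of falling uniqueness.

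**Figure D3:**
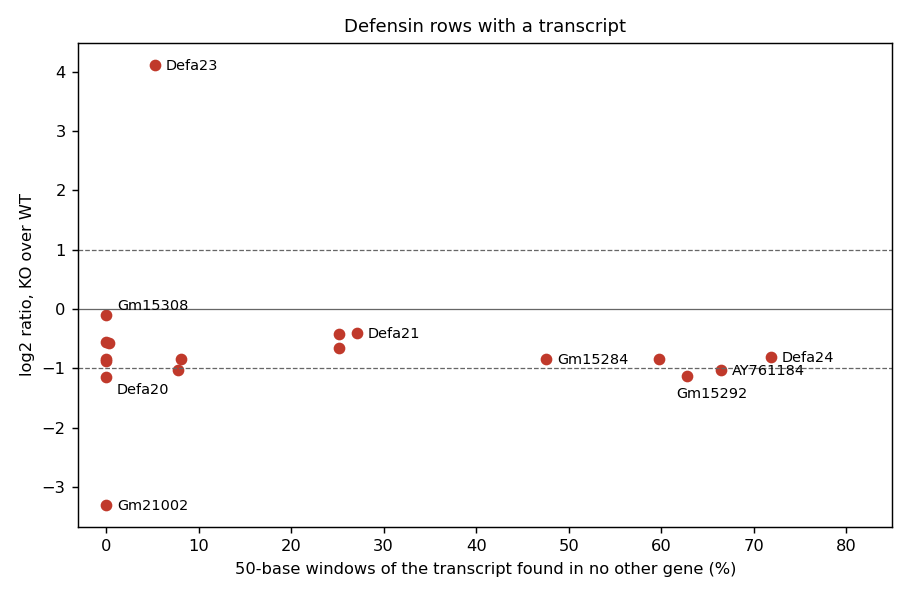
Log2 ratio of KO over WT for 18 placed defensin rows against the percentage of 50-base windows of the transcript found in no other gene, with dashed lines at 2-fold. Rows over 50% lie between -1.13 and -0.80, whereas rows under 10% run from -3.30 to 4.12.

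Copies whose transcripts share 99% or more of their bases were summed, which gives a group the ratio of its most abundant rows by arithmetic. Defa-rs7 and Defa23 are identical over 377 aligned bases, and together they were at 2586 FPKM in KO and 4631 FPKM in WT, a log2 ratio of -0.84. Defa2, Defa20, Gm15308 and Gm21002 together were at 13204 FPKM in KO and 19337 FPKM in WT, a log2 ratio of -0.55. Defa17 and Defa3, which differ by C370T on the Defa17 transcript, were together at 5218 FPKM in KO and 9507 FPKM in WT (-0.87). The row called higher and the row with the lowest ratio thus both belonged to groups whose totals were lower in KO by less than 2-fold. Defa21 and Defa22 together were at 6628 FPKM in KO and 8792 FPKM in WT, and with a ratio of -0.41 this pair differed least of the 13 values. Gm7849 and the identical Gm7861 were together at 4181 FPKM in KO and 7373 FPKM in WT (-0.82). After summing, the 19 placed rows gave 13 values between -1.13 and -0.41, with a median of -0.82 and an SD of 0.20. The 17 placed rows at 1 FPKM or more in both libraries had an SD of 0.28 singly. Of the 13, Gm15292 and AY761184 were at least 2-fold lower and 0 were higher.

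**Figure D4:**
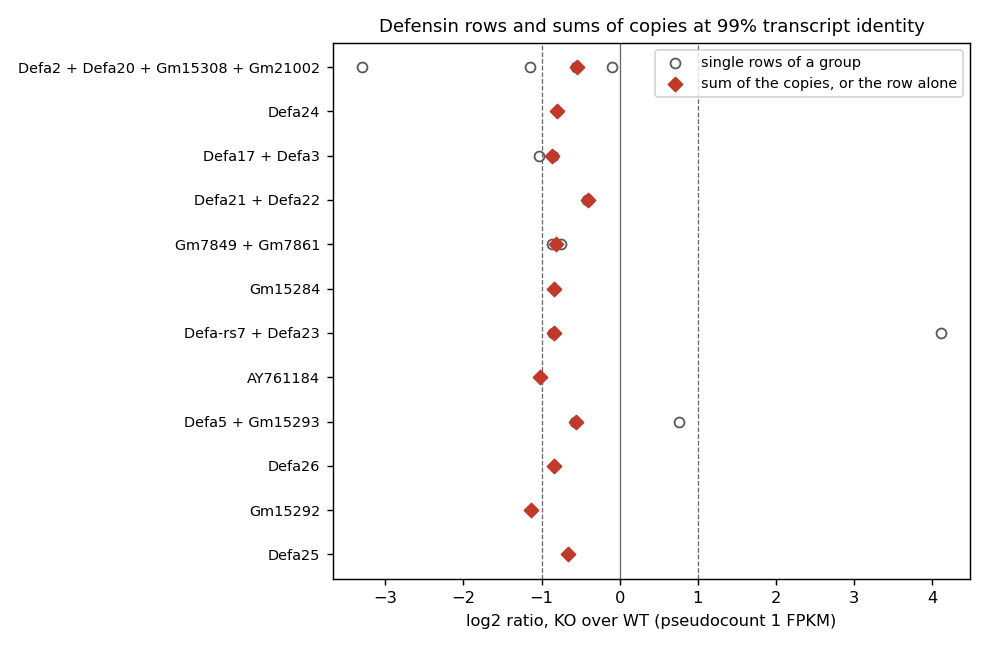
Log2 ratio of KO over WT for defensin rows, with open circles for the single rows of a group of copies and filled diamonds for the sum of each group or a row without a copy, dashed lines at 2-fold. The 12 diamonds drawn lie between -1.13 and -0.41, while single rows reach -3.30 and 4.12.

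Inside the group of 4 copies the split between rows differed with the base that separates them. Defa2 held 52.3% of the group in KO and 52.7% in WT. Defa20 held 15.7% in KO and 23.8% in WT, and Gm15308 held 32.0% in KO and 23.4% in WT. Defa20 and Gm15308 both carry G148C and differ by A343G on the Defa20 transcript. Copies without G148C made up 52.3% in KO and 52.7% in WT, and copies without A345G made up 68.0% in KO and 76.5% in WT. In the reference transcripts, Defa20 at -1.15 and Gm15308 at -0.10 are thus separated by a single base outside the coding region.

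A further 9 rows are alpha-defensin genes in RefSeq although their names in the tables fall outside the rule, and they were measured in the same way. The most abundant were Gm21498 (Defa36), at 2587 FPKM in KO and 3679 FPKM in WT, and Gm7861 (Defa43), at 1789 FPKM in KO and 3001 FPKM in WT. Of these 9, 8 had a negative ratio, the median was -0.75 and the KO sum was 62.7% of the WT sum. Gm6696 (Defa28), at 5.27 FPKM in KO and 17.1 FPKM in WT, was at least 2-fold lower. Gm15293 (Defa41) had the only positive ratio, at 7.05 FPKM in KO and 3.75 FPKM in WT, and its transcript is 99.2% identical to that of Defa5.

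Among the other granule proteins, Lyz1, the Paneth cell lysozyme that cleaves bacterial cell walls (chromosome 10, 117287795 to 117292868), was at 3191 FPKM in KO and 5797 FPKM in WT, a log2 ratio of -0.86. Itln1, an intelectin that binds microbial sugars (chromosome 1, 171518123 to 171535325), was at 1723 FPKM in KO and 3014 FPKM in WT, a log2 ratio of -0.81. Ang4, a microbicidal ribonuclease of the angiogenin family (chromosome 14, 51763892 to 51773590), was at 658 FPKM in KO and 1229 FPKM in WT, a log2 ratio of -0.90. These 3 stood close to Defa24, Defa17 and Gm15284 in ratio. Their transcripts are far easier to assign, with 83.9% of windows unique for Lyz1, 95.3% for Ang4 and 1081 of 1092 for Itln1. The 195 windows that Lyz1 shares are also in Lyz2, the lysozyme of macrophages, which was at 125 FPKM in KO and 52.7 FPKM in WT.

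Mmp7, matrilysin, the protease that activates mouse pro-alpha-defensins (chromosome 9, 7692090 to 7699585), was at 309 FPKM in KO and 384 FPKM in WT, a log2 ratio of -0.32. Pla2g2a, a secretory phospholipase A2 (chromosome 4, 138831857 to 138835189), was at 79.8 FPKM in KO and 93.2 FPKM in WT (-0.22), and RefSeq lists it in the reference strain as a transcribed pseudogene. The processing enzyme Mmp7 thus differed less between the libraries than the summed precursors it cuts. The lipase-related gene Pnliprp2 (chromosome 19, 58759723 to 58777534) was at 30.9 FPKM in KO and 63.6 FPKM in WT (-1.02). Clps, colipase, a cofactor of pancreatic lipase (chromosome 17, 28558210 to 28560766), was at 100.2 FPKM in KO and 205 FPKM in WT (-1.03). Pnliprp2 and Clps were the only 2 of the 9 called lower, both just past 2-fold, and they stood at -0.95 for Clps and -0.94 for Pnliprp2 after the same scaling. Habp2, a hyaluronan-binding serine protease (chromosome 19, 56287109 to 56320820), was at 12.8 FPKM in KO and 22.2 FPKM in WT (-0.75). Nupr1, a small stress-induced nuclear protein and so not a secreted product (chromosome 7, 126623246 to 126625470), was at 40.8 FPKM in KO and 46.2 FPKM in WT (-0.17). All 9 ratios were negative, with a median of -0.81, an SD of 0.34 and a KO sum at 56.6% of the WT sum.

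Clps and Pnliprp2 are also made by pancreatic acinar cells, so markers of these were examined. Of 18 acinar markers 11 were in the tables, and Cpa1, Try5 and Cel, which define that cell type, were listed at 0 in both libraries. Of the 4 at 1 FPKM or more, Rnase1 was at least 2-fold lower, at 25.3 FPKM in KO and 56.3 FPKM in WT, and Zg16, also a goblet cell gene, was at least 2-fold higher, at 1648 FPKM in KO and 668 FPKM in WT.

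Genes of Paneth cell lineage and niche outside the rule had ratios on both sides of 0. Of 32 such genes 27 were at 1 FPKM or more, with a median log2 ratio of -0.06, 16 negative and 11 positive. Reg4, a secreted lectin, was at least 2-fold lower, at 94.5 FPKM in KO and 202 FPKM in WT. The antibacterial lectin Reg3b was at least 2-fold higher, at 4133 FPKM in KO and 1928 FPKM in WT, and so was Lyz2. Reg3g, also an antibacterial lectin, was at 2257 FPKM in KO and 1231 FPKM in WT (0.87). Guca2a, the guanylin precursor, was at 696 FPKM in KO and 536 FPKM in WT (0.38), and the pentraxin gene Mptx2 at 445 FPKM in KO and 711 FPKM in WT (-0.67). The abundant defence genes of this list thus differed in sign. Transcription factors of the lineage were less abundant. Bhlha15, which promotes the secretory cell form, was at 6.45 FPKM in KO and 8.73 FPKM in WT (-0.39). Atoh1, which commits crypt cells to secretory fates, was at 8.90 FPKM in KO and 10.1 FPKM in WT, and Sox9, needed for Paneth cells to form, was at 15.2 FPKM in KO and 18.6 FPKM in WT. Spdef and Gfi1, which act later in secretory cells, had ratios of -0.05 and 0.04, and Xbp1, which expands the secretory apparatus, had a ratio of 0.14. Elsewhere in the list, Mptx1 (-0.80), Cd24a (-0.58), Ephb3 (-0.51) and Wnt3 (-0.50) had negative ratios within 2-fold. Tcf7l2 (0.20), Tgfa (0.15), Nod2 (0.12) and Fzd5 (0.02) had positive ones.

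Genes of granule formation, secretion and autophagy showed no call in either direction among 24 at 1 FPKM or more, with 9 negative and 15 positive ratios and a median of 0.05. Agr2, a disulfide isomerase of mucus-producing cells, was at 1062 FPKM in KO and 789 FPKM in WT. The chaperone Hspa5 was at 461 FPKM in KO and 368 FPKM in WT, and the translocation subunits Ssr4 and Sec61b had log2 ratios of 0.05 and 0.04. Tmed6, a cargo receptor family member, had the lowest ratio of the list, -0.68, at 11.5 FPKM in KO and 19.1 FPKM in WT. Many of these genes are used by goblet cells as well.

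Markers of other cell types differed in the same libraries. Stem cell markers had 13 of 13 ratios negative, a median of -0.56 and Lgr5, Olfm4 and Msi1 at least 2-fold lower. Enteroendocrine markers had a median of -0.46, with Gip and Ghrl of 14 at least 2-fold lower. Goblet markers had a median of 0.53 over 10 genes, with Zg16 at least 2-fold higher and Clps, itself a member, at least 2-fold lower. Enterocyte markers had a median of 0.68 over 11 genes, with 4 at least 2-fold higher and Fabp1 at least 2-fold lower. Stromal and mesothelial markers were at least 2-fold higher for 8 of 8, with a median of 3.05 and a summed level of 321 FPKM in KO and 51.1 FPKM in WT. Macrophage markers were at least 2-fold higher for 6 of 8, with a sum of 383 FPKM in KO and 159 FPKM in WT. Tuft markers had a median of -0.31 over 5 genes. Mast cell and neutrophil markers had a median of 0.86 over 5 of 12, with 3 listed at 0 in both libraries. The part of these marker levels in the members' values was not tested.

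**Figure D5:**
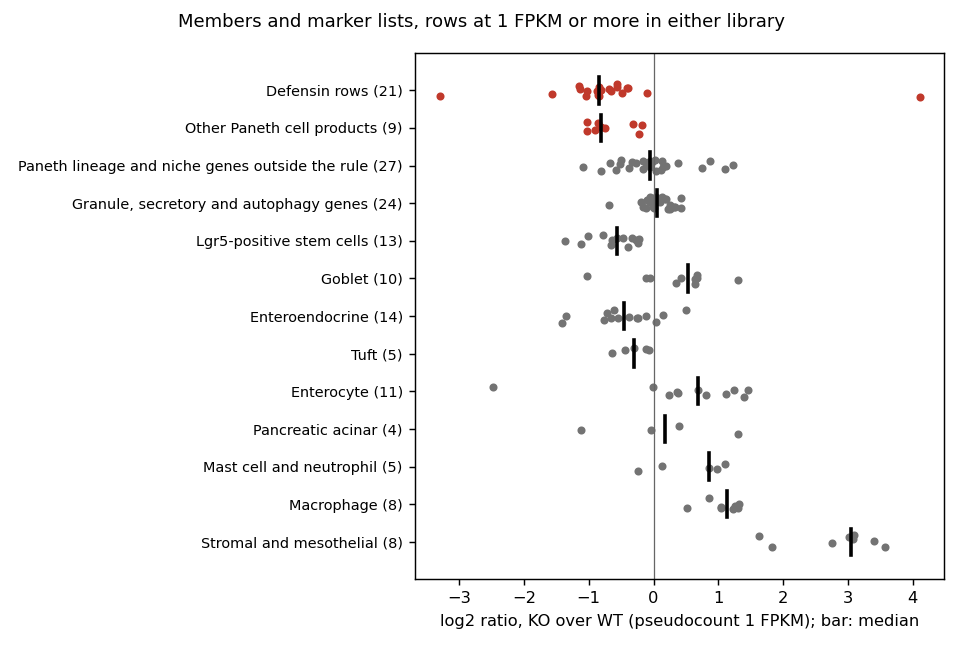
Log2 ratios of KO over WT for the defensin rows, the other Paneth cell products and 11 marker lists, 1 point per row at 1 FPKM or more in either library, with a black bar at each median and the number of rows in brackets. The defensin rows (-0.84) and the other products (-0.81) have the lowest medians of the sets drawn, followed by the stem cell list (-0.56), and the stromal list has the highest (3.05).

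The sequence before the gene start was read for the members in the RefSeq promoter table, since the summed defensin copies had ratios close to each other. Of the 25 defensin rows 9, and of the 9 other products 7, had an entry of 300 bases, from 250 before to 50 after the start. The core letters bound by TCF factors were searched on either strand as NNCAAAG with AT, AA, TT or TA in place of the first letters, so that ATCAAAG is one form. TATAAA was searched on the gene's strand. Of the 9 defensin promoters, 8 (88.9%) held a TCF core and 9 of 9 held TATAAA, against 1 of 7 other products for each, namely Mmp7. Of all 27025 genes with a promoter entry, 18.9% held a TCF core in any of their entries and 9.77% held TATAAA in any of them. The defensin promoters are copies of each other and are not independent. The 150 bases before the start of 5 members show the shared layout, with ATCAAAG and TATAAA in capitals.
Defa-rs7 (chr8:21191423-21191572, plus strand): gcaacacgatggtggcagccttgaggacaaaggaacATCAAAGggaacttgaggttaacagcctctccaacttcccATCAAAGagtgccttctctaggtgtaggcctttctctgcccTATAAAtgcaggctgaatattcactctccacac
Defa2 (chr8:21378367-21378516, plus strand): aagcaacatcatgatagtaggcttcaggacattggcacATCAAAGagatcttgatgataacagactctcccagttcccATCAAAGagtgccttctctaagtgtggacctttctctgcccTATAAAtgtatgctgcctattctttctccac
Defa21 (chr8:21025395-21025544, plus strand): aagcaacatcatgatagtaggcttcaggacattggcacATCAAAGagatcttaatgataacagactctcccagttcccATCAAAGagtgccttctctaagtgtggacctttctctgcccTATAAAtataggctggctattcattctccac
Gm15284 (chr8:21134500-21134649, plus strand): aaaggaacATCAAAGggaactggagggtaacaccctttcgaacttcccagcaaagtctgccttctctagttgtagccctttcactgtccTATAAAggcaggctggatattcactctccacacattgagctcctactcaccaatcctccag
Gm7849 (chr8:21456518-21456667, minus strand): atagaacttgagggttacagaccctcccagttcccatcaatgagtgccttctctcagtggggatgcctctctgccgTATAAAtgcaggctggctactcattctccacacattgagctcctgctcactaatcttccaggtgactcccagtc
The sequences are from RefSeq GRCm38.p6 and run 5′ to 3′ on the strand of the gene. In Defa-rs7, Defa2 and Defa21 ATCAAAG stands at 2 places, and in these and in Gm15284 the first lies 81 bases from TATAAA. Gm15284 holds 1 of the 2, and Gm7849 holds neither in these 150 bases or in its entry of 300 bases. The log2 ratios of the 5 rows were -0.85, -0.56, -0.40, -0.84 and -0.87 in the order printed, and any relation to these letters was not tested. A match is a description of letters and not a binding site.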

How the data were processed

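Transcripts were measured by single-end RNA sequencing (50-base reads, BGISEQ-500, 59000000 reads per sample on average, per the labels' protocols) in 1 KO and 1 WT library. The authors deposited FPKM values per gene, per the file headers. The submitters' processing notes name HISAT, Bowtie2 and RSEM, and mm10 as the build. The roles of these tools, the annotation, the use of strand and the handling of reads that match several copies are not stated there or in the labels.

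Both tables were joined on gene identifier. Log2 ratios are log2((KO + 1)/(WT + 1)), which understates the change of low rows. A call needed 2-fold with the larger value at 1 FPKM or more. With 1 library per genotype there was no test. Depth was estimated from steps between low values, for transcripts under 900 bases, as about 1.71e+07 reads in KO and 1.69e+07 in WT. That fit left 70.5% of KO and 73.4% of WT values within 0.2 of a whole read, so it is approximate. The steps tried did not reach the 59000000 reads per sample of the labels, so a depth of that size could not be returned. At the estimated depth 1 FPKM of a 0.4 kb transcript is about 6.84 reads in KO and 6.78 in WT, and this covers counting error only.

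GENCODE M21 transcripts (the longest coding one per gene) were aligned pairwise, and 50-base windows were searched on both strands in all other genes' transcripts. Copies were joined by single linkage at 99% identity. Coordinates, current symbols and promoters are from RefSeq GRCm38.p6. The text gives in full the 10 most abundant defensin rows, every defensin row past 2-fold and the 9 other products, and from the lists the 4 most abundant genes and those past 2-fold, of which those closest to Paneth cells are printed. Other genes named were chosen after their values were seen. The members and lists were chosen with earlier results of these data known. Python 3.11.15, pandas 2.3.3, numpy 2.4.6 and Biopython 1.88 were used. Values of 1 member are not reported here singly, though family totals and counts include it. On simulated data for the KO against WT comparison (7970 genes, all above the 1 FPKM limit in WT), the rule recovered 100 of 100 genes made lower and 100 of 100 made higher by 4-fold, and called 0 unchanged genes. The simulated scatter was set near that seen between genes, and a 4-fold change then lies far from the limit. This checks that the rule runs as written, and calls near 2-fold or near 1 FPKM were not simulated.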

Additional observations from a re-analysis of the deposited data

How the results depend on the processing

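The medians of the defensin rows (-0.84) and of the other products (-0.81) moved by less than the scatter between genes under every setting run. These settings were pseudocounts of 0.1 and 5 FPKM, other filters, 4 scalings, summed copies and rows with unique windows; scaling shifted the median ratio by -0.04 to 0.08. Defa23 and Gm21002, near 0 in 1 library, moved further, most of all with the pseudocount. Defa23 was at 5.74 with a pseudocount of 0.1 FPKM and at 2.33 with 5 FPKM. Gm21002 was at -4.87 with a pseudocount of 0.1 FPKM and at -1.67 with 5 FPKM. After scaling without the members they were at 4.65 and -3.80. With the 9 further defensin rows the members' share of all FPKM was 9.43% in KO and 14.5% in WT. Counts and spread depended on the setting. The count of members called lower, 8, was 1 under a 3-fold rule, 4 after scaling to a sum of 1000000, 5, 3 and 3 after summing copies at 99%, 97% and 95% identity, and 5 without rows under 10% unique windows. The count of defensin rows called lower, 6, was 1 under the 3-fold rule, 4 after scaling to that sum, 3, 1 and 1 with copies summed, and 3 without those rows. That scaling ended the calls of AY761184, Defa3, Clps and Pnliprp2, and a pseudocount of 5 FPKM ended those of Clps and Pnliprp2. The count called higher, 1, was 0 with copies summed, without rows under 10% unique windows and without rows under 1 FPKM in either library. The SD over defensin rows, 1.27, was 0.77 with a pseudocount of 5 FPKM, 0.29, 0.32 and 0.35 with copies summed, and 0.34 without rows under 10% unique windows. Without rows under 1 FPKM in either library, which removes Defa23 and Gm21002, it was 0.33. Defa23 turned from 4.12 to -0.84, -0.86 and -0.83 with copies summed, because Defa-rs7 dominates its group. Of 270 values of single members under alternatives, 242 lay within that scatter of the reported value, and 29 of 30 members were negative under every scaling and pseudocount. Summing copies by transcript identity, the further defensin rows and the limits on unique windows and on 1 FPKM in both libraries were chosen after seeing the data. The limits of 1000 FPKM in WT and of 80% were not among the planned settings either. Groups by RefSeq protein identity were not run, since proteins were not used here. No paired analysis was possible because each genotype has 1 library. Without replicates, the spread between mice is unknown, and rows near 0.31 FPKM rest on few reads, about 2 by the depth estimated here.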

Other observations

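Rows below the abundance of the leading defensins were also searched for low KO values. Of 786 rows at 100 to 1000 FPKM in WT, 10 stood at or below 60% of the WT value in KO, and 6 of these were no members. Some abundant defensins do not meet this limit themselves, such as Defa2 at 67.9% and Gm15308 at 93.1% of WT. Gip, an enteroendocrine hormone, was at 39.5 FPKM in KO and 107 FPKM in WT, and Reg4 at 94.5 FPKM in KO and 202 FPKM in WT. Ceacam10, a cell adhesion family member, was at 57.0 FPKM in KO and 102 FPKM in WT, and Ppard, a lipid-sensing nuclear receptor, at 65.6 FPKM in KO and 114 FPKM in WT. Cnbd2 was at 322 FPKM in KO and 564 FPKM in WT, and Erdr1 at 128 FPKM in KO and 217 FPKM in WT. These genes were found by this limit after the values were seen.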
